A study of Mus musculus with 12 samples.

Results

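The comparison described here is knockout (KO) of the splicing regulator gene Srrm4, also called nSR100, against control in the cortex of mouse embryos at E18.5 (days of embryonic development). It was formed by taking every sample whose label names cortex, which gave 6 of the 12 samples of the series. Replicate 1 of each group was sequenced in runs 1 and 2 that share a table, so these 6 samples are 4 libraries of the 8 in the series, 2 KO and 2 control. All 22667 gene IDs of the tables were considered, and 16111 had enough reads to be tested. Whole-tissue messenger RNA was measured, so fewer cells of a type and less RNA per cell cannot be told apart. The labels call the controls wild type. KO animals carried a conditional Srrm4 allele from the EUCOMM resource, introduced through stem cells that were combined with morulae of the outbred ICR stock. Exons 7 and 8 were removed by a cross to B6.C-Tg(CMV-cre)1Cgn/J, a strain in which a cytomegalovirus promoter drives Cre recombinase broadly, and the background of the line was C57Bl/6N. The deletion is therefore not limited to cortex or to neurons. The labels do not say whether a library is 1 animal or a pool, nor whether replicates are different animals. The p-values therefore reflect only how far these libraries differ, some of which may be technical.

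SRRM4 is a serine- and arginine-rich nuclear protein made in neurons, where it promotes the inclusion of neuronal exons and above all of microexons, very short exons of genes that act in synapses, the cytoskeleton and membrane traffic. One of its known targets is the transcript of the repressor Rest, whose neuronal splice form encodes a truncated protein. The total read count of a gene, which is what these tables hold, does not tell splice forms apart.

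The 2 exons that the deletion removes are shown because they are the change that defines the KO libraries. In the Srrm4 transcript ENSMUST00000076124 of GENCODE M21 (build GRCm38), which has 13 exons, exon 7 spans chr5:116467768-116467860 and exon 8 spans chr5:116467432-116467588, both on the minus strand and both coding. That the exon numbers of the labels are those of this transcript was assumed. Their sequences read, 5′ to 3′:
Srrm4 exon 7: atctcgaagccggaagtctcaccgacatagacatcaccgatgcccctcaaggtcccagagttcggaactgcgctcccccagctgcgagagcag
Srrm4 exon 8: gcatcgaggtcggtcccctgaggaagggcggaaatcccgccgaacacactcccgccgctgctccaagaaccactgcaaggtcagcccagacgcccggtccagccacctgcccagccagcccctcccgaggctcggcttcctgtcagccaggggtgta
Exon 7 is 93 bases long and exon 8 is 157 bases long. Together they are 250 of the 7472 bases of the transcript, or 3.35%, and 13.7% of its 1824 coding bases. Since 250 leaves a remainder of 1 on division by 3, joining exon 6 to exon 9 shifts the reading frame.

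Total counts were 132754979 and 68213778 in control replicates 1 and 2 and 140052443 and 62778943 in KO replicates 1 and 2. At these depths 3 counts correspond to 0.0214 to 0.0478 CPM (counts scaled to library size). Transcription factors that mark cortical projection neurons were abundant in all 4 libraries, with Tbr1 at 70.3 to 71.9 RPKM (the authors' read count scaled by gene length and sequencing depth), Bcl11b at 47.7 to 56.0 RPKM and Fezf2 at 28.1 to 34.5 RPKM. Genes of the Y chromosome differed widely between the libraries. The 4 tested Y-linked genes (Ddx3y, Kdm5d, Uty and Eif2s3y) summed to 10.3 and 45.5 RPKM in the controls and to 7.34 and 0.11 RPKM in the KO libraries, so control replicate 2 was the highest and KO replicate 2 was close to 0. The sexes of the embryos behind each library are not in the labels used here, and the part of this difference in other results was not tested.

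Across the transcriptome the KO and control cortex libraries were close. Of 16111 genes, 3 passed an adjusted p of 0.05 in edgeR's quasi-likelihood test with Benjamini-Hochberg adjustment. Srrm4 fell, En2 and Hddc3 rose, and no other gene passed. The 2 higher genes are 0.0124% of those tested, the 1 lower gene is 0.00621% and all 3 together are 0.0186%. At an unadjusted edgeR quasi-likelihood p below 0.05 there were 183 of the 16111 genes. This is under the 0.05 share that p-values of unchanged genes would give. The count depended on the fit. It was 97 in DESeq2, 165 of 15694 with the 4 cortex libraries alone, and 1029 of 15694 when these were fitted with the replicate number as a block. It does not measure how many genes changed. Among the 12469 genes with a mean of at least 1 RPKM in a cortex group, 99.6% had a fitted fold change below 1.5. In this set 27 genes were at least 1.5-fold higher and 19 at least 1.5-fold lower in KO, and 12 and 12 were past 2-fold. Within both replicate numbers, only 4 genes were past 2-fold upwards and 4 downwards.

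Differences between single replicates were larger at the median than those between the genotype means. Means of 2 libraries vary less than single libraries, so these sizes are not like for like. How much of the gap this makes up was not tested. The median absolute log2 fold change of the 12469 genes was 0.045, while single replicate libraries of 1 group differed by a median absolute log2 value of 0.10 in controls and 0.12 in KO. The KO-minus-control difference of replicate 1 and that of replicate 2 had the same sign for 52.2% of these genes. Their Pearson correlation across genes was 0.25, and 0.21 without Srrm4, En2 and the Y-linked genes. Genes are not independent replicates, so this is a description without a test. Replicate 1 was sequenced in 2 runs and replicate 2 in 1, so the replicate number also stands for the sequencing runs.

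**Figure D1:**
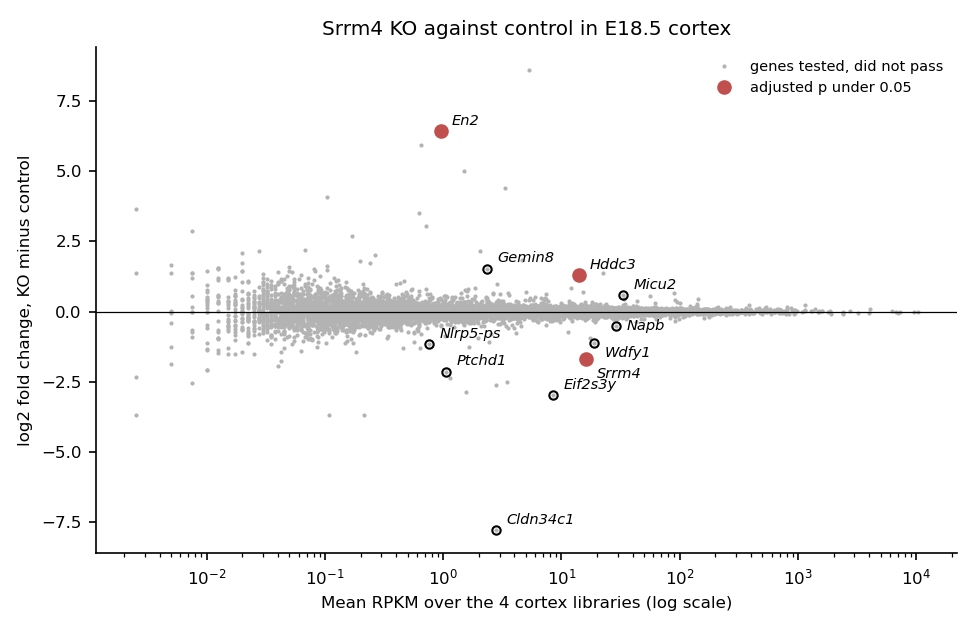
Log2 fold change (KO minus control, vertical axis) against mean RPKM over the 4 cortex libraries (horizontal log axis) for all tested genes with a mean above 0. Red circles are the 3 genes that passed (Srrm4 at -1.71, Hddc3 at 1.31 and En2 at 6.44), black open circles are named genes that did not pass, and the other genes lie mostly near 0, with a wider spread at low RPKM.

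**Figure D2:**
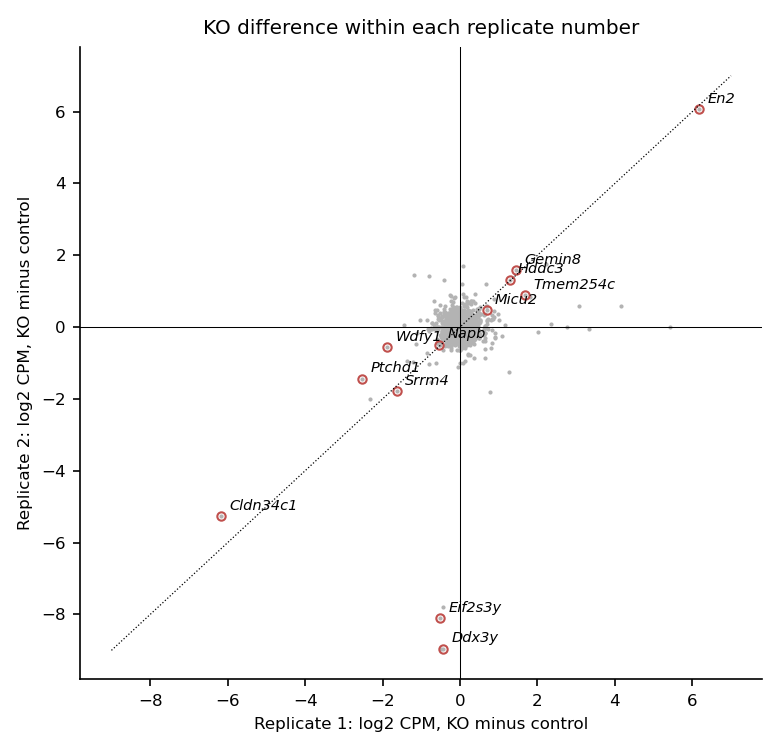
Log2 CPM difference between KO and control within replicate 1 (horizontal axis) and within replicate 2 (vertical axis), for genes with at least 1 RPKM in a cortex group, with the dotted line of equality. Srrm4, En2, Hddc3 and Gemin8 lie near the line, whereas the Y-linked Ddx3y and Eif2s3y lie far below it.

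Srrm4 was the targeted gene and fell in both KO libraries. It read 25.2 and 24.2 RPKM in the controls and 8.12 and 6.97 RPKM in KO (counts of 24868, 12272, 8448 and 3251). All values of 1 genotype lay apart from those of the other. The means were 24.7 ± 0.71 and 7.545 ± 0.81 RPKM (SD, n = 2 libraries each), a 3.26-fold lower level in KO with a log2 fold change of -1.71 (SE 0.10) and an edgeR quasi-likelihood adjusted p of 0.00088. KO was 32.2% of control within replicate 1 and 28.8% within replicate 2. Reads from the gene therefore remained in both KO libraries, although the KO allele lacks exons that make up 3.35% of the transcript. Whether these reads come from transcripts that skip exons 7 and 8 cannot be told from gene totals. The antisense gene Srrm4os shares 68 bases with the exons of Srrm4, and whether reads were counted by strand is not stated.

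En2, a homeobox transcription factor that patterns the midbrain and hindbrain and is on chromosome 5 as Srrm4 is, rose from near 0 in KO. It had 10 and 5 counts in the controls and 964 and 391 counts in KO, or 0.02, 0.02, 1.98 and 1.79 RPKM. The KO libraries were alike and far above the controls. The log2 fold change was 6.44 (SE 0.30), with an edgeR quasi-likelihood adjusted p of 0.00028, and the differences within replicates 1 and 2 were 6.18 and 6.07. From the pooled counts, En2 was 89.5 times higher in KO, with an exact binomial 95% interval of 54.1 to 160 that covers counting error only. EUCOMM gene-trap cassettes are known to carry a splice acceptor taken from the mouse En2 gene. Whether the En2 counts come from the allele or from the En2 gene cannot be told apart in gene totals.

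Other markers of midbrain and hindbrain were low in all 4 libraries. Of the 18 genes of this list, 10 were tested, 1 passed (En2), and the median log2 fold change of the tested members was -0.11, against -0.00057 over all 16111 genes. This median ranged from -0.16 to 6.43 with the scaling, filter and fit. The upper end is close to the log2 fold change of En2 itself (6.44), so it does not describe the other members. The KO libraries lay above both controls in 3 of the 10 (30%) and below in 0, against 9.64% and 11.0% of all genes. The En2 paralog En1, chosen for comparison after its values were seen, read 0.02, 0.02, 0.03 and 0.01 RPKM in the same order. Gbx2, a factor of the boundary between midbrain and hindbrain, read 0.67 and 0.60 RPKM in control and 0.79 and 0.63 RPKM in KO, with overlap. Th, the rate-limiting enzyme of dopamine synthesis, read 0.83 and 0.76 RPKM in control and 1.20 and 0.98 RPKM in KO, higher in both KO libraries without passing (log2 fold change 0.47, SE 0.24). The 8 members that were not tested, among them Pax3, Pax7 and Hoxb2, had 0 to 8 counts per library.

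Hddc3, which encodes a small hydrolase of the HD-domain family on chromosome 7, rose about as much in both replicates. It read 7.61 and 8.60 RPKM in the controls and 18.54 and 21.45 RPKM in KO, from 476 to 2106 counts per library. Neither KO value came near a control value. The fold was 2.47, with a log2 fold change of 1.31 (SE 0.12) and an edgeR quasi-likelihood adjusted p of 0.017, and within replicates 1 and 2 the difference was 1.29 and 1.32. This call was the least stable of the 3, since it passed in 12 of 20 alternative analyses, its adjusted p reached 0.46 without control replicate 1, and it was above 0.05 without any 1 of the 4 cortex libraries. In GENCODE M21 its exons share 427 bases with Man2a2 on the opposite strand and 2454 bases with the unclassified model Gm18310, so overlapping transcription could enter its count. Man2a2, a Golgi mannosidase gene, read 23.0 and 20.9 RPKM in control and 23.1 and 24.0 RPKM in KO (log2 fold change 0.11).

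**Figure D3:**
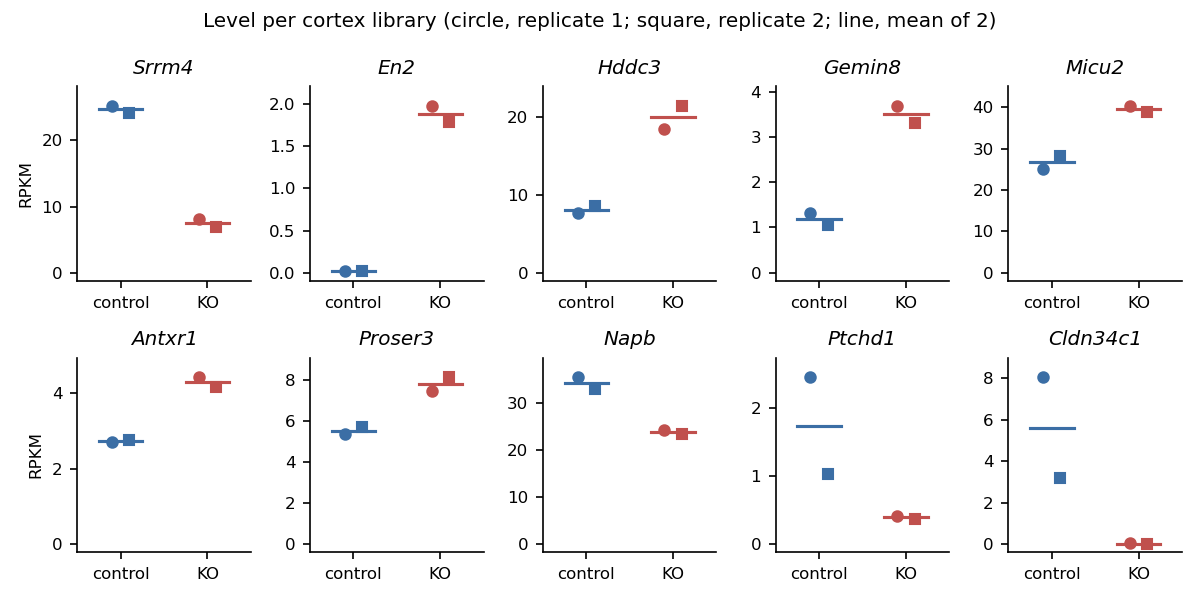
RPKM of 10 genes in each of the 4 cortex libraries (vertical axes start just below 0 and differ in scale), with circles for replicate 1, squares for replicate 2 and lines for the mean of 2 libraries. In all 10 panels the KO values lie apart from the control values, while in Ptchd1 and Cldn34c1 the 2 controls differ from each other by more than 2-fold.

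The next 10 genes by p did not pass and had values that differed in how well replicates matched. In Micu2, a gatekeeper of the mitochondrial calcium uniporter, the controls read 25.1 and 28.2 RPKM and the KO libraries 40.3 and 38.8 RPKM, apart from each other. Its log2 fold change was 0.58 (SE 0.07), with an edgeR quasi-likelihood adjusted p of 0.16. Of 9 tested genes for mitochondrial calcium uptake none passed in edgeR, Micu2 passed in DESeq2 (adjusted p of 3.7e-06), and 7 had a fold change below 0, with a median of -0.03. The related Micu3 read 9.68 and 10.3 RPKM in control and 8.45 and 8.42 RPKM in KO, the opposite direction to Micu2.

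The X-linked Gemin8, for a subunit of the SMN complex that assembles spliceosomal snRNPs, read 1.32 and 1.06 RPKM in control and 3.68 and 3.31 RPKM in KO. Both KO values were more than 2-fold above both controls, from 53, 22, 156 and 63 counts. The log2 fold change was 1.53 (SE 0.21), with an edgeR quasi-likelihood adjusted p of 0.18. None of the 9 tested SMN complex genes passed in edgeR, Gemin8 passed in DESeq2 (adjusted p of 0.023), and the list's median log2 fold change was -0.03. Smn1, the core subunit, read 24.7 and 25.3 RPKM in control and 23.9 and 24.8 RPKM in KO.

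Napb, which encodes beta-SNAP, an adaptor that lets NSF take apart SNARE complexes after vesicle fusion, read 35.3 and 32.9 RPKM in control and 24.2 and 23.4 RPKM in KO. It was lower in both KO libraries, at 68.5% and 71.0% of control within replicates 1 and 2. The log2 fold change was -0.52 (SE 0.07), and it did not pass in edgeR's quasi-likelihood test (adjusted p of 0.23) but did in DESeq2 (adjusted p of 0.00066). Antxr1, a cell-surface receptor for collagen and anthrax toxin, read 2.71 and 2.77 RPKM in control and 4.42 and 4.18 RPKM in KO (log2 fold change 0.66, SE 0.09). Proser3 read 5.35 and 5.70 RPKM in control and 7.47 and 8.12 RPKM in KO (log2 fold change 0.50, SE 0.10). In both genes the replicates of a group were close and the groups did not overlap.

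Cldn34c1, a claudin-family gene on the X chromosome, was nearly absent from KO and uneven between the controls. It had 254 and 52 counts in control and 1 and 0 counts in KO. From pooled counts the KO level was 0.0032 of control, with an exact binomial 95% interval of 8.2e-05 to 0.018 for counting error only. The edgeR quasi-likelihood adjusted p was 0.16, and the gene passed in 6 of 19 alternative analyses. Ptchd1, an X-linked gene for a patched-domain membrane protein, was uneven in the same way, at 2.44 and 1.03 RPKM in control and 0.41 and 0.37 RPKM in KO (log2 fold change -2.14, SE 0.47). Both genes were higher in control replicate 1 than in control replicate 2, whereas the Y-linked genes were higher in control replicate 2. Among the KO libraries the Y-linked genes were lower in replicate 2.

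Of the remaining genes with the smallest p, Tmem254c read 11.9 and 13.7 RPKM in control and 38.9 and 25.4 RPKM in KO (log2 fold change 1.37, SE 0.28). It belongs to a cluster of near-identical copies on chromosome 14, among which reads can be misassigned, so its level is uncertain. Nlrp5-ps, a pseudogene whose exons overlap Vmn1r90, read 1.13 and 0.97 RPKM in control and 0.47 and 0.48 RPKM in KO. Cryba4, a lens crystallin gene, read 0.28 and 0.33 RPKM in control and 0.62 and 0.65 RPKM in KO. All 3 kept the groups apart. None passed in edgeR, and Tmem254c passed in DESeq2 (adjusted p of 0.025).

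Genes whose KO libraries both lay above both controls were 1551 of 16092 with RPKM values (9.64%), and 1766 (11.0%) lay below. Among those with at least 1 RPKM in a group, the 15 with the largest fold change in each direction were examined. Of the 15 higher genes, 7 had under 200 counts over the 4 libraries and 4 were annotated as pseudogenes. In this set 4 lay on chromosome 14, 1 on the X chromosome (Gemin8) and 0 on the Y chromosome. Of the 15 lower genes, 3 had under 200 counts, 2 were annotated as pseudogenes and 2 had no symbol. Among these 4 lay on the Y chromosome, 2 on the X chromosome and 0 on chromosome 14. In each direction 10 of the 15 differed by at least 0.5 on the log2 scale within both replicate numbers.

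Several of these sizes rested on replicate 1. Wdfy1, which encodes an endosomal adaptor of Toll-like receptor signalling, read 26.3 and 24.8 RPKM in control and 7.16 and 16.7 RPKM in KO, a drop to 27.2% of control in replicate 1 and 67.4% in replicate 2. Efcab7, for a ciliary protein, read 3.20 and 3.24 RPKM in control and 1.44 and 2.33 RPKM in KO. Entpd4b on chromosome 14 read 11.62 and 11.95 RPKM in control and 21.40 and 16.34 RPKM in KO. All 3 showed the larger difference in KO replicate 1. Fxyd1, a regulator of the sodium pump, was more even, at 1.33 and 1.31 RPKM in control and 2.48 and 2.29 RPKM in KO (log2 fold change 0.86, SE 0.21).

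The Y-linked genes were below both controls in both KO libraries, with the sizes set by replicate 2. Eif2s3y read 4.86 and 25.5 RPKM in control and 3.38 and 0.08 RPKM in KO, and the median log2 difference of the 4 genes was -0.46 within replicate 1 and -8.53 within replicate 2. None passed. Their 5 tested X-linked partners had a median log2 fold change of 0.11, with Kdm6a at 9.70 and 9.03 RPKM in control and 10.04 and 10.10 RPKM in KO.

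The groups of genes that follow were taken from lists, and passing refers to edgeR's quasi-likelihood test unless another tool is named. Of 546 distinct members tested over 33 lists, 1 passed (En2) and 14 had an unadjusted p below 0.05, beside 3 and 183 of all 16111 genes. DESeq2 called 4 members, which were En2, Gemin8, Micu2 and Napb, beside 11 of all 16111 genes. The lists were chosen with earlier results of these data known, so these shares are not a test of the lists.

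Genes of the splicing machinery showed no change that passed. Of 31 splicing regulators tested, 0 passed, 12 had a fold change above 0, and the median log2 fold change was -0.01. The KO libraries lay above both controls in 3 of them (9.68%) and below in 0, near or under the 9.64% and 11.0% of all genes. Srrm3, the closest relative of Srrm4 with a related role in microexon splicing, read 14.4 and 14.2 RPKM in control and 15.4 and 17.8 RPKM in KO (log2 fold change 0.21, SE 0.10), higher in both KO libraries and mainly in replicate 2. Ptbp2, the neuronal polypyrimidine-tract protein, overlapped between groups at 86.1 to 102.8 RPKM. Hnrnph1 and Elavl3, the most abundant of the regulators, also overlapped, with Hnrnph1 at 260.7 to 304.8 RPKM and Elavl3 at 177.1 to 205.0 RPKM.

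Host genes of neuronal microexons kept their total levels to within small differences. None of 50 passed, 31 had a fold change above 0, the median was 0.02, and 3 lay above and 3 below both controls, 6% each and under the shares of all genes (9.64% and 11.0%). Phf21a, a histone reader of the LSD1 complex, read 19.5 and 19.1 RPKM in control and 20.9 and 21.0 RPKM in KO (log2 fold change 0.12, SE 0.06). Ptprs, a receptor phosphatase of synapse formation, read 124.7 and 122.1 RPKM in control and 126.1 and 140.3 RPKM in KO. L1cam, an axonal adhesion molecule, read 131.4 and 125.6 RPKM in control and 130.7 and 135.4 RPKM in KO. These are levels of all splice forms together, so inclusion of the microexons themselves was not measured.

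Rest, whose splicing is a known target of SRRM4, read 2.52 and 2.91 RPKM in control and 2.68 and 3.69 RPKM in KO, with overlap (log2 fold change 0.23, SE 0.14). Among 30 genes known to be repressed by REST, 0 passed, 13 had a fold change above 0 and the median was -0.02. The KO libraries lay below both controls in 5 of them (16.7%) and above in 0, beside 11.0% and 9.64% of all genes. Stmn3, a neuronal microtubule regulator, read 506.1 and 519.1 RPKM in control and 480.9 and 484.2 RPKM in KO (log2 fold change -0.08, SE 0.07). Glra2, a glycine receptor subunit, read 33.3 and 31.3 RPKM in control and 30.3 and 29.5 RPKM in KO (log2 fold change -0.11, SE 0.07).

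**Figure D4:**
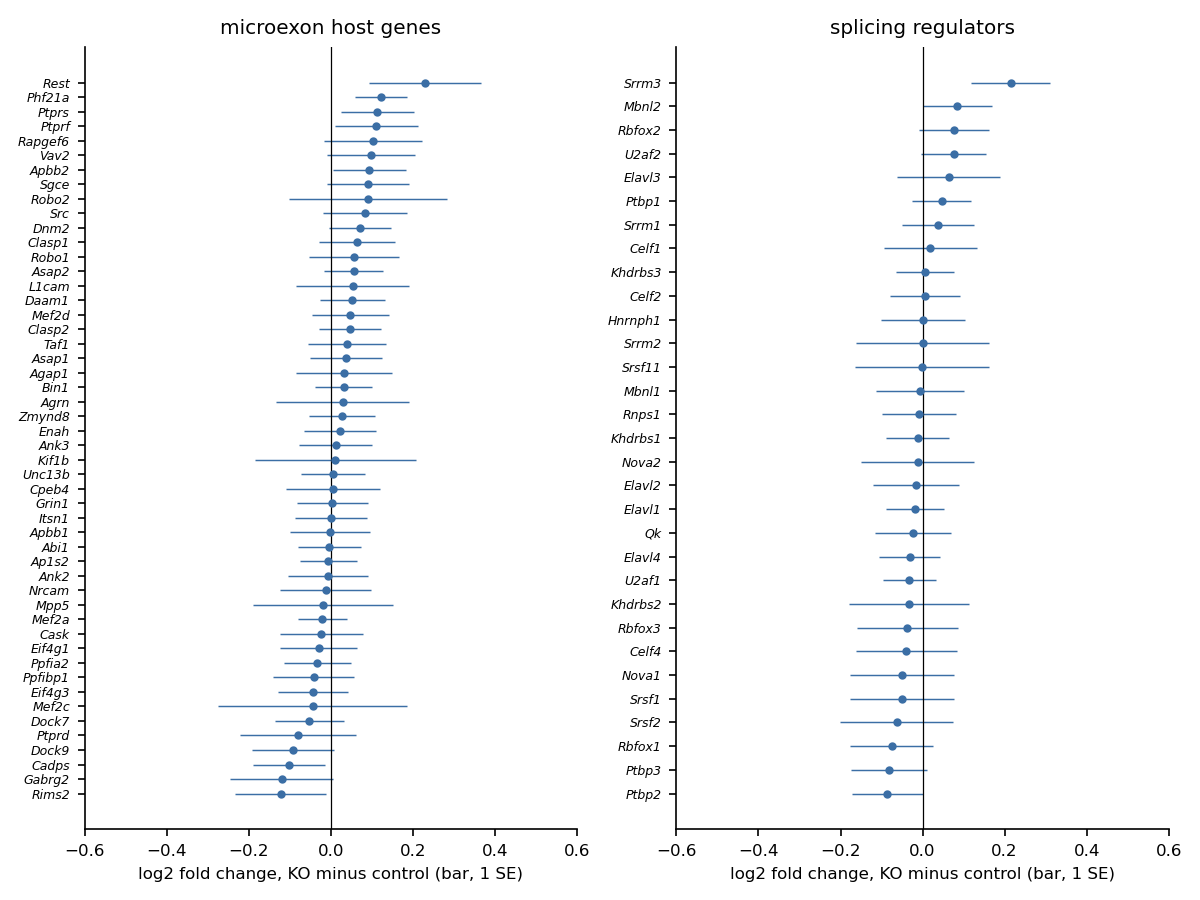
Log2 fold change (KO minus control, horizontal axis, with bars of 1 SE) of each tested microexon host gene (left, 50 genes) and splicing regulator (right, 31 genes), sorted by value. No gene in either panel passed, and the medians of the panels are 0.02 and -0.01.

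Genes of axon growth and of the synapse had list medians near 0, and Napb, described above, had the lowest log2 fold change of the vesicle genes. Of 35 neurite and axon guidance genes 0 passed (median log2 fold change 0.01). Tubb2b, a neuronal tubulin, read 2778 and 2687 RPKM in control and 2818 and 2722 RPKM in KO. Draxin, a chemorepellent of commissural axons, read 42.3 and 39.8 RPKM in control and 44.8 and 44.5 RPKM in KO, and Ntn1, a guidance cue, read 6.66 and 6.02 RPKM in control and 8.92 and 6.56 RPKM in KO with overlap. Of 26 synaptic vesicle genes 0 passed in edgeR and 1, Napb, in DESeq2. The median was -0.02, and 4 (15.4%) lay below both controls and 0 above, against 11.0% and 9.64% of all genes. The 4 included Napb, Rims1 and the vesicle protein gene Sv2b (13.96 and 11.92 RPKM in control, 11.65 and 10.29 RPKM in KO). Among 26 glutamate and GABA receptor genes 0 passed, the median was -0.03, and 6 (23.1%) lay below and 1 (3.85%) above both controls, against 11.0% and 9.64% of all genes. Gabra2, for a GABA-A receptor subunit, read 32.95 and 28.59 RPKM in control and 27.57 and 22.85 RPKM in KO (log2 fold change -0.28, SE 0.12).

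Markers of cortical neuron classes were present in both genotypes, with list medians near 0 for both layer groups. In the 13 tested upper-layer markers the median log2 fold change was 0.02 and in the 14 deep-layer markers it was -0.0046 (8 and 7 members above 0), and none passed. Of the upper-layer markers 3 (23.1%) lay above and 1 (7.69%) below both controls, and of the deep-layer markers 1 (7.14%) lay above and 5 (35.7%) below, beside 9.64% and 11.0% of all genes. Cux2, an upper-layer factor, overlapped at 22.3 to 24.8 RPKM, and Tbr1 read 71.9 and 71.5 RPKM in control and 70.6 and 70.3 RPKM in KO. The 8 subplate markers had a median of -0.08, but -0.09 within replicate 1 and 0.06 within replicate 2, so the replicates differed in direction. Of the 8, 1 (12.5%) lay above and 2 (25%) below both controls. Kcnab1, a potassium channel beta subunit, read 6.42 and 6.58 RPKM in control and 5.14 and 5.78 RPKM in KO. Pappa2 went the other way, at 2.58 and 2.34 RPKM in control and 2.97 and 2.72 RPKM in KO. The 10 Cajal-Retzius markers had a median of 0.09, while Reln itself overlapped at 38.6 to 50.2 RPKM.

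Among 22 interneuron markers none passed, 16 had a fold change above 0, the median was 0.06, and 4 lay above and 4 below both controls (18.2% each, against 9.64% and 11.0% of all genes). Htr3a, which marks interneurons of caudal origin, read 6.23 and 6.16 RPKM in control and 8.03 and 7.37 RPKM in KO (log2 fold change 0.32, SE 0.11). Calb1, for a calcium-binding protein, read 10.1 and 9.91 RPKM in control and 8.72 and 8.59 RPKM in KO (log2 fold change -0.20, SE 0.12). Sst, the somatostatin gene, read 173.7 and 176.3 RPKM in control and 170.2 and 170.9 RPKM in KO. The members thus differed in direction, with differences of at most 1.3-fold among these 3.

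Markers of tissue next to the cortex were also examined. Of 15 striatal and ventral forebrain markers 0 passed, 13 had a fold change above 0 (median 0.11), and 10 lay above both controls and 1 below, against 9.64% and 11.0% of all genes. Rarb, a retinoic acid receptor of striatal neurons, read 9.93 and 11.2 RPKM in control and 12.9 and 12.5 RPKM in KO, and Rxrg read 21.8 and 21.0 RPKM in control and 23.9 and 25.2 RPKM in KO. The 13 hippocampal and medial pallium markers had a median of -0.01, with 0 above and 4 (30.8%) below both controls. The part of the striatal markers in other results was not tested.

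Progenitor and proliferation genes gave small values. Of 15 radial glia markers 0 passed (median 0.01), and Pax6, a progenitor factor, read 10.05 and 10.96 RPKM in control and 11.2 and 12.1 RPKM in KO. Of 14 intermediate progenitor markers 0 passed, 11 had a fold change above 0 and the median was 0.09. Neurog2, a proneural factor, read 10.2 and 11.3 RPKM in control and 11.4 and 14.1 RPKM in KO (log2 fold change 0.25, SE 0.11), and Eomes overlapped at 12.3 to 14.8 RPKM. The 24 cell cycle genes had a median of -0.04, with 0 above and 0 below both controls, against 9.64% and 11.0% of all genes. Their median difference was 0.08 within replicate 1 and -0.13 within replicate 2, so the replicates differed in direction. Early astrocyte markers (13 tested, median -0.02) and oligodendrocyte lineage markers (11 tested, median 0.00) each had 0 passing members.

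Microglial and blood genes had the largest positive list medians, and none of them passed in edgeR or in DESeq2. Of 18 microglial markers 16 had a fold change above 0, the median was 0.20, and 8 (44.4%) lay above and 0 below both controls, against 9.64% and 11.0% of all genes. Their summed level was 62.8 and 58.2 RPKM in control and 68.0 and 68.7 RPKM in KO, and no marker was at 0. Ctss, a lysosomal protease of microglia, read 3.85 and 3.41 RPKM in control and 4.64 and 4.68 RPKM in KO (log2 fold change 0.36, SE 0.11). Trem2, a microglial lipid receptor, read 1.47 and 1.37 RPKM in control and 1.77 and 1.89 RPKM in KO (log2 fold change 0.36, SE 0.14). P2ry12 and Cx3cr1, defining receptors of microglia that were chosen after their values were seen, overlapped between groups, at 1.66 to 2.09 RPKM and 2.17 to 3.10 RPKM.

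Of the 8 tested red blood cell genes 7 had a fold change above 0, the median was 0.43, and 5 (62.5%) lay above and 0 below both controls, against 9.64% and 11.0% of all genes. Hbb-bs, an adult beta globin, read 110.2 and 134.2 RPKM in control and 177.7 and 152.9 RPKM in KO (log2 fold change 0.45, SE 0.21). The summed level was 215.5 and 283.5 RPKM in control and 357.4 and 301.5 RPKM in KO, and the median difference was 0.69 within replicate 1 and 0.15 within replicate 2. The near-identical globin copies can share reads, and the embryonic Hbb-bh1 was at 0 or 1 counts. Endothelial and pericyte genes (16 tested, median 0.05) and meningeal genes (12 tested, median 0.10) had 0 passing members. The meningeal median was 0.20 within replicate 1 and -0.08 within replicate 2. The choroid plexus list (12 tested) had a median of 0.09, which ranged from -0.02 to 0.20 with the scaling and fit. It was 0.15 within replicate 1 and -0.09 within replicate 2. Ttr, its most specific member, read 0.49 and 4.26 RPKM in control and 0.60 and 6.68 RPKM in KO, so the replicates of a group differed more than the genotypes, with KO at 122% of control within replicate 1 and 157% within replicate 2. The part of blood, microglia or choroid plexus in other results was not tested.

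Genes of general cell state gave no passing member. Of 33 ribosomal protein genes 31 had a fold change above 0, with a median of 0.06, and 10 (30.3%) lay above both controls and 0 below, against 9.64% and 11.0% of all genes. Rpl28 read 445.0 and 446.1 RPKM in control and 480.7 and 497.4 RPKM in KO (log2 fold change 0.14, SE 0.07). The 16 immediate early genes had a median of 0.01 with 4 (25%) above both controls, against 9.64% of all genes, among them Jun (16.3 and 15.8 RPKM in control, 21.9 and 18.1 RPKM in KO) and the phosphatase gene Dusp1 (13.2 and 13.3 RPKM in control, 15.6 and 14.9 RPKM in KO). The 16 stress genes had a median of 0.03. The 15 p53 targets had a median of -0.02 with 4 (26.7%) below both controls, against 11.0% of all genes, among them Ccng1 at 12.55 and 12.64 RPKM in control and 11.3 and 11.1 RPKM in KO. Mitochondrially encoded genes (12 tested) had a median of -0.02, and mitochondrial transcripts took 3.14% to 3.44% of counts in the 4 libraries.

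A log2 fold change within 0.5 of 0 was found for 525 of the 546 list members. The KO libraries lay above both controls in 15.02% of the 546 and below both in 10.3%, beside 9.64% and 11.0% of all genes. With 2 libraries a group and the spread seen here, differences of this small size could not be told from replicate spread gene by gene.

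**Figure D5:**
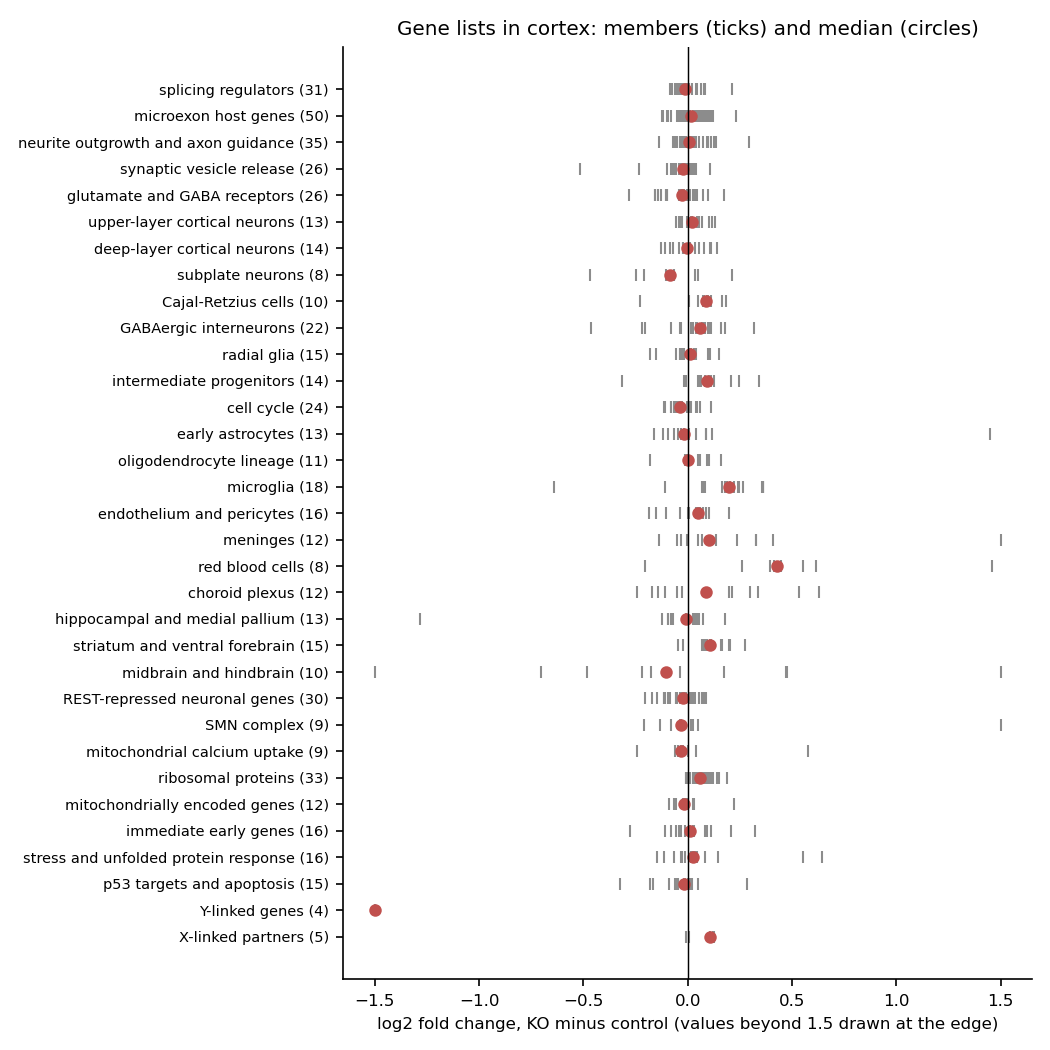
Log2 fold change (KO minus control, horizontal axis) of every tested member of the 33 gene lists (grey ticks, values beyond 1.5 drawn at the edge) with the list median (red circles) and the number tested in brackets. The vertical line is the median of all genes tested, and the medians lie near it except for red blood cells (0.43), microglia (0.20) and the Y-linked genes (-2.57, drawn at the edge).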

How the data were processed

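Each deposited table holds, per Ensembl gene ID, a whole-number read count made by the authors and an RPKM value, which the authors scaled by gene length and by total count. Bowtie and the mouse build mm9 are named in the submitters' processing notes. How reads were assigned to genes, and the annotation used, are not stated in the labels. Libraries were TruSeq preparations of Tri Reagent RNA, per the labels' protocols. RPKM cells with the text "ne" (1114 per table) were treated as missing, and blank counts as 0. Symbols were found for 20759 of 22667 IDs in GENCODE M21; the exon sequences and the search for overlapping exons also used it.

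Counts were fitted with edgeR 4.0.16 (R 4.3.3; TMM scaling, filterByExpr with a minimum count of 10 and a minimum total of 15, glmQLFit and glmQLFTest, two-sided) as 4 group means over the 8 cortex and hippocampus libraries, so that both tissues share 1 estimate of the spread. The contrast was cortex KO minus cortex control, with Benjamini-Hochberg adjustment over 16111 genes and a threshold of 0.05. The SE is the size of the log2 fold change divided by the square root of F. RPKM served for levels and for the overlap of groups (16092 genes), and differences within a replicate number are log2 CPM with a prior count of 2. The fit was tested on simulated data. The chi-square of replicates per degree of freedom was 30.6 in control and 40.8 in KO, above what counting error gives, so replicates were kept apart in the fits. Counts of replicates were pooled for the ratios of En2 and Cldn34c1. Their intervals leave out this spread between replicates.

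The members and the gene lists were chosen with earlier results of these data known. Named genes are Srrm4, every passing gene, the 10 smallest p that did not pass, the 15 largest separated fold changes in each direction with a mean of at least 1 RPKM, and in each list the 3 most abundant members and the 3 with the smallest p; the text gives a part of them, and a gene outside the rule is said to be so. The lists held 588 entries, of which 581 were found. Alternatives were DESeq2 1.42.0, other scalings and filters, limma 3.58.1 on log2 RPKM with a pseudocount of 1 or 0.1, the cortex libraries alone, the replicate number as a block, and each library left out.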

Additional observations from a re-analysis of the deposited data

How the results depend on the processing

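Srrm4 and En2 passed in all 20 alternatives, with adjusted p-values of up to 0.024 and 0.017, and Hddc3 in 12 of 20. One of the 20, without genes of chromosomes X and Y, was chosen after seeing the data. DESeq2 called 11 genes (7 higher, 4 lower), adding Micu2, Antxr1, Cldn34c1, Napb, Ptchd1, Gemin8, Tmem254c and Proser3 to the 3. No filter on low counts, limma on log2(RPKM + 0.1) and limma on quantile-normalized values each gave 2 lower genes in place of 1. Limma on log2(RPKM + 1) and the 4 cortex libraries alone each gave 1 higher gene in place of 2. Leaving out 1 library at a time gave from 2 to 3 passing genes, 1 to 2 of them higher and 1 lower throughout; Hddc3 was the gene lost, with an adjusted p of up to 0.46, without any cortex library or either hippocampus KO library. The labels tie libraries of the same replicate number to no shared litter or animal, but the number coincides with the count of runs and with depth. Deviations of same-numbered libraries from their group means correlated at 0.27 between the 2 cortex groups. Between cortex and hippocampus of the same genotype they correlated at 0.37 (control) and 0.38 (KO), the highest of all pairs. The remaining pairs of the 4 groups gave 0.096 to 0.28. The main fit counts all 8 libraries as independent, which these values do not establish. With the replicate block on 8 libraries 2 genes passed as lower and 2 as higher, and with the replicate block on the 4 cortex libraries alone 71 passed (34 higher, 37 lower), the 3 among them; that fit leaves 1 residual degree of freedom. It called 14 list members, which were En2, Gemin8, Micu2, Napb, Sv2b, Gabra2, Ntn1, Rarb, Jun, mt-Nd3, Eif2s3y, Uty, Hbb-bs (adjusted p 0.00053) and Alas2 (0.0090), and it also called Nlrp5-ps and Tmem254c. Of 4033 recomputed values of the 204 named genes 127 had the opposite sign, none in a gene and setting that passed. List medians over the scalings and fits spanned 0 for the choroid plexus, hippocampal (-0.036 to 0.0090), radial glia, immediate early and deep-layer lists. They also did so for the midbrain and hindbrain list (-0.16 to 6.43), where the upper end is close to the value of En2 itself. Over all alternatives the medians of other lists spanned 0 too, among them Cajal-Retzius (-0.040 to 0.20) and meninges (-0.0081 to 0.20). Low counts limit Cldn34c1 in KO and En2 in the controls. For genes at 1 RPKM or more the spread between 2 libraries a group gave a median SE of 0.10 on the log2 scale.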

Other observations

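Some high fitted fold changes came from 1 library. Gm6356 on chromosome 14, chosen after its values were seen, had 117 counts in KO replicate 1 and 0 counts in the other 3 cortex libraries, and Gm10340 on the same chromosome had 16 counts there and 0 elsewhere. Eif3j2 on chromosome 18 had 3 and 1 counts in control and 104 and 2 counts in KO. Plac9b on chromosome 14 had 0 and 0 counts in control and 7 and 1 counts in KO. None of these genes passed.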
